A study of Mus musculus with 2 samples.

Results

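The genes of the mouse major histocompatibility complex (MHC) were compared between *Pgrmc1* KO and WT liver. The members are the 44 genes of the deposited TPM table whose symbol starts with H2-, together with *B2m*, *Cd74*, *Tap1*, *Tap2*, *Tapbp*, *Ciita* and *Nlrc5*, which gives 51 of 24054 genes. They comprise 32 class I genes, 10 class II genes, 5 class I cofactors, 2 class II cofactors and 2 genes (*H2-Ke2* and *H2-Ke6*) that carry an H2- symbol from their position in the complex but encode a prefoldin subunit and a steroid dehydrogenase. Levels were measured by RNA-seq of whole liver from male C57BL/6 mice aged 8 to 12 weeks. The KO mice (*Pgrmc1* -/Y) lacked exons 1 and 2 of *Pgrmc1* in the whole body, after a floxed allele had been recombined by Cre under the *Sox2* promoter, and the WT males carried the same strain label. Whether the WT mice carried Cre is not given in the sources used here. The targeted embryonic stem cells were C57BL/6N, injected into Balb/c blastocysts, and the chimeras were bred to C57BL/6N mice. RNA of 5 mice per genotype was pooled at 2.5 μg each into 1 library, so the groups hold 1 KO and 1 WT library and the spread between mice was not measured.

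Class I molecules are made of a polymorphic heavy chain and β2-microglobulin, and display peptides from inside the cell to CD8+ T cells and natural killer cells. The peptides are cut by the proteasome, carried into the endoplasmic reticulum by the TAP transporter and loaded with the help of tapasin. Class II molecules are pairs of α and β chains that display peptides from endosomes to CD4+ T cells, and are made mainly by dendritic cells, B cells and macrophages. In liver, hepatocytes express class I genes, including *H2-Q10*, which encodes a class I molecule that is secreted into the blood, whereas Kupffer cells, dendritic cells and B cells are the usual sources of class II.

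Levels are in TPM, which is adjusted for transcript length and so can be compared between genes. The change of a gene is log2((KO TPM + 1)/(WT TPM + 1)). Near 1 TPM the added 1 makes a change look smaller than it is. A gene was counted as past the fold when it reached 1.4 or 0.6 on that scale and averaged at least 1 TPM over the libraries; such genes are called measured below. The 95% intervals are exact Clopper-Pearson intervals of the log2 ratio of the mean signal in a second deposited table, derived from estimated reads, and hold the error of counting alone. With 1 library per genotype there is no replicate check and no p-value. The reads recovered from that table numbered 22086688 in the KO library and 29710410 in the WT library. *Pgrmc1* itself was at 0.68 TPM in KO and 949.49 in WT, in the direction of the labels.

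None of the 31 measured members was past the fold in either direction. Over all 11623 measured genes, 1.51% were past the fold, 1.21% higher in KO and 0.301% lower. The changes of the 31 members ran from -0.27 for *H2-Q8* to 0.37 for *H2-Q2*, with a median of 0.019, beside a median of -0.013 and a 5th to 95th percentile range of -0.27 to 0.27 over all genes tested. Of the 31, 19 were higher in KO and 12 lower. The counting interval lay above 0 for 7 members (*H2-K1*, *H2-D1*, *H2-Q7*, *H2-Q9*, *H2-T9*, *H2-Ab1* and *B2m*), below 0 for 2 (*H2-Q10* and *Tap2*) and held 0 for the other 22. For *B2m* and *H2-Ab1* the log2 ratio of mean signal (0.043 and 0.20) was above the TPM change (0.019 and 0.17). Their lower bounds lay so near 0 that their place among the 7 depends on the scaling of the second table. Over all 11543 measured genes with a mean signal the interval left out 0 for 25.1%, above it for 11.7% and below it for 13.4%, so 9 of 31 members is near the share of all genes.

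**Figure D1:**
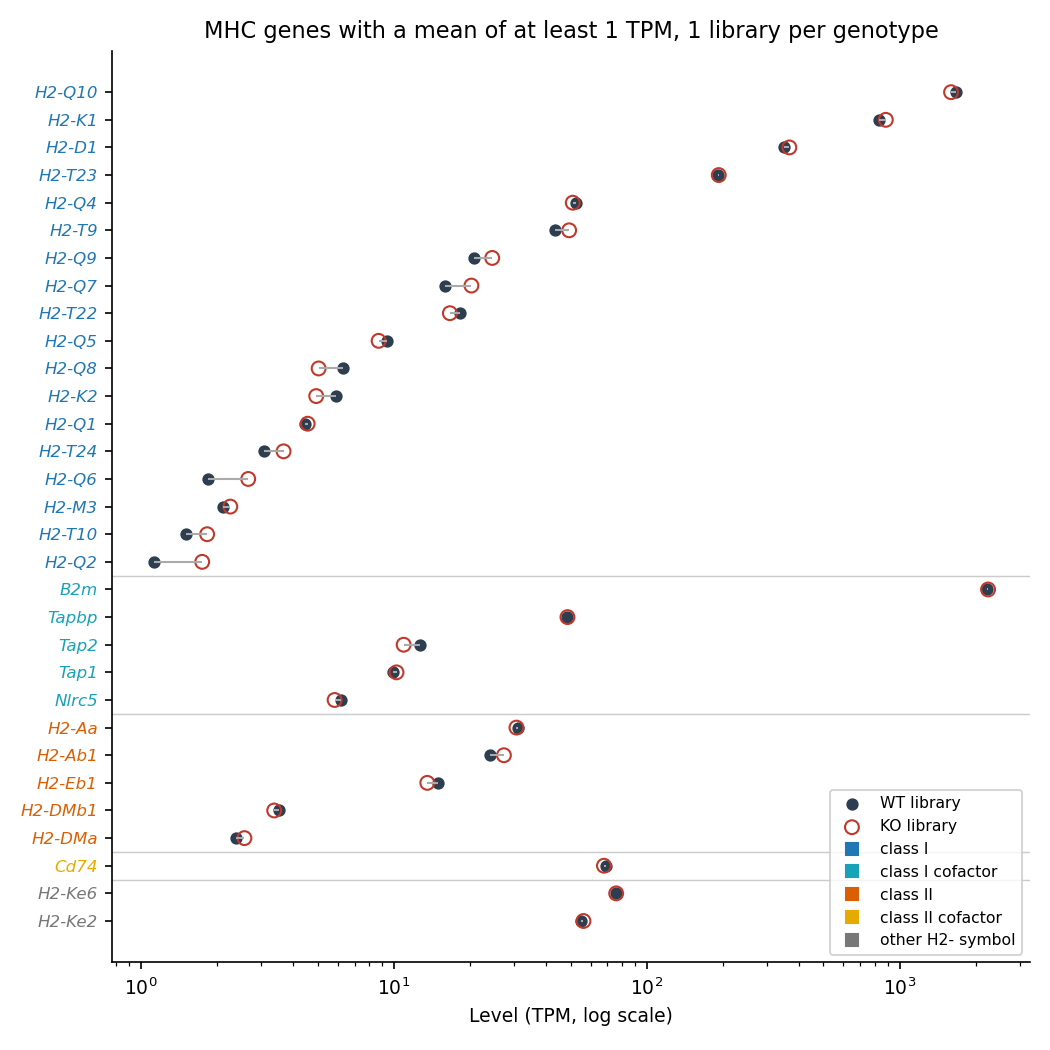
Level of each of the 31 measured MHC genes in the KO library (open circles) and the WT library (filled circles), in TPM on a log scale, ordered by class and level. The circles of a gene lie close together over a range of levels from 1.13 TPM for *H2-Q2* in WT to 2236.76 TPM for *B2m* in KO.

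**Figure D2:**
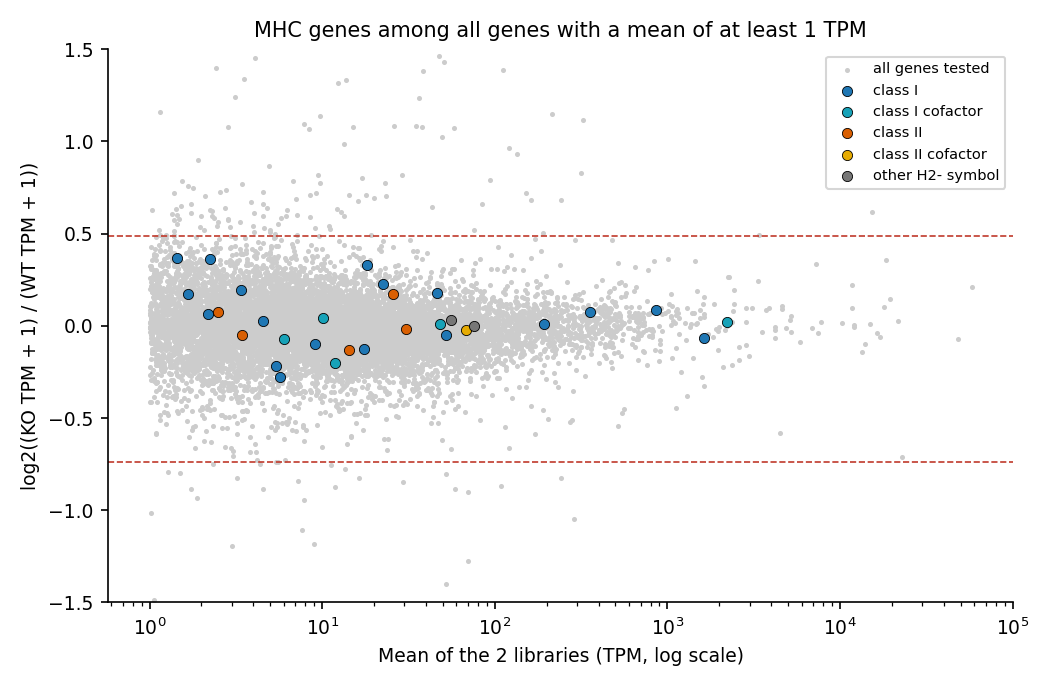
Change between the libraries, log2((KO TPM + 1)/(WT TPM + 1)), against the mean level in TPM on a log scale, for all 11623 genes tested (grey) and the MHC genes (colored by class); dashed lines mark folds of 1.4 and 0.6, and 26 genes lie beyond the plotted range. All 31 MHC genes lie between the dashed lines.

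The class I pool of liver was carried by a few genes. *H2-Q10* was the most abundant heavy chain, at 1597.24 TPM in KO and 1674.09 in WT, a change of -0.068 (interval -0.073 to -0.029). The classical genes *H2-K1* and *H2-D1*, which present peptides to CD8+ T cells, came next. *H2-K1* was at 881.98 TPM in KO and 829.84 in WT, a change of 0.088 (interval 0.076 to 0.13), and *H2-D1* at 366.58 and 348.37 TPM, a change of 0.073 (interval 0.047 to 0.13). *H2-Q10* was thus slightly lower and both classical genes slightly higher in the KO library, each with an interval that left out 0 and each by less than the 5th or 95th percentile of genes that averaged at least 10 TPM (-0.25 and 0.20). The ratio of *H2-K1* to *H2-Q10* was 0.552 in KO and 0.496 in WT, while that of *H2-D1* to *H2-K1* was 0.416 and 0.420.

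These genes lie on chromosome 17 of GRCm38, the mm10 assembly: *H2-K1* at chr17:33996012-34000619, *H2-D1* at chr17:35263094-35267497, *H2-Q7* at chr17:35439140-35443773 and *H2-Q10* at chr17:35470089-35474563. The 250 bases before a RefSeq start site of *H2-D1*, *H2-Q7* and *H2-Q10* are shown because they allow the secreted *H2-Q10* to be set beside a classical gene and a Q region neighbour. They were taken from GRCm38.p6 at chr17:35262844-35263093 (plus strand) for *H2-D1*, chr17:35438905-35439154 (plus strand) for *H2-Q7*, whose last bases lie in the annotated gene, and chr17:35469839-35470088 (plus strand) for *H2-Q10*. Capitals mark the longest stretch common to these windows and to the window before *H2-K1* (chr17:34000334-34000583, minus strand, not shown since it lies inside the annotated gene) and, nearer the start site, the letters CCAATC, the reverse complement of GATTGG.
H2-D1: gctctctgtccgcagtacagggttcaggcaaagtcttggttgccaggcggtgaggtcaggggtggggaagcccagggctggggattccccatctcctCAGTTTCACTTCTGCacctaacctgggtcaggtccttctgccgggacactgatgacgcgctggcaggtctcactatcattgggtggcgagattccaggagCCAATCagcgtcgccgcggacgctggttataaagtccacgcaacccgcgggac
H2-Q7: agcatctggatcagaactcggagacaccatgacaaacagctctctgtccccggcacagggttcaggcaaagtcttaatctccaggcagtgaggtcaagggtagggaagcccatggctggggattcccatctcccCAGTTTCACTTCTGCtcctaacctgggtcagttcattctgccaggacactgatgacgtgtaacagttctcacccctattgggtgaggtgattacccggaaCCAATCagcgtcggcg
H2-Q10: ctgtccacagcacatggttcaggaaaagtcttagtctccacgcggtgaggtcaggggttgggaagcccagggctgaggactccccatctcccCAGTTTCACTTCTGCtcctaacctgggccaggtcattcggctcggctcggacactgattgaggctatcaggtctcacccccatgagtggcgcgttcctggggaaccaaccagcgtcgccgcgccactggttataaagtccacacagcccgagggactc

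Over the aligned bases, the *H2-Q10* window was 82.6% identical to that of *H2-D1*, 81.5% to that of *H2-K1* and 80.9% to that of *H2-Q7*. The shared stretch, CAGTTTCACTTCTGC, is 15 bases long and was found on either strand of 7 of 32851 promoter windows in RefSeq (0.0213%), all 7 of them before the class I genes *H2-K1* (2 start sites), *H2-D1*, *H2-Q4*, *H2-Q6*, *H2-Q7* and *H2-Q10*. The 6 letters GATTGG, the core of an inverted CCAAT box of the kind that NF-Y binds, were searched on both strands of the promoter windows, which here also took in the first bases after the start site. They were present in 18 of 24 class I windows (75%), in 8 of 9 class II windows (88.9%) and in 16.1% of all windows. *H2-K1*, *H2-D1* and *H2-Q7* held them, and *H2-Q10*, the most abundant class I gene in both libraries, did not. The interferon-stimulated response element, searched on both strands as GAAA, 2 bases of any kind and GAAA again, was present in 2 of 24 class I windows (*H2-T22* and *H2-T23*) and in that of *B2m*, beside 3.44% of all windows. Only exact matches to that pattern of the response element were counted, and variants of it were not searched. The windows of *H2-K1*, *H2-D1*, *H2-Q7* and *H2-Q10* held no exact match, which does not show that they lack the element. Whether the shared stretch is a variant of the element was not tested. All matches given here describe the letters of the windows only.

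The other Q region genes were far less abundant and include near-identical copies. They encode non-classical class I molecules, apart from *H2-Q5*, which is annotated as a transcribed pseudogene. *H2-Q4* was at 51.04 TPM in KO and 52.80 in WT (change -0.048). *H2-Q9* was at 24.52 and 20.81 TPM, a change of 0.23 (interval 0.14 to 0.48), and *H2-Q7* at 20.29 and 15.91 TPM, a change of 0.33 (interval 0.014 to 0.56). *H2-Q7* and *H2-Q9*, which encode the lipid-anchored Qa-2 antigen, were thus both higher in the KO library.

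Lower still, *H2-Q5* was at 8.72 TPM in KO and 9.41 in WT (change -0.099), *H2-Q8* at 5.05 and 6.32 TPM (-0.27) and *H2-Q1* at 4.57 and 4.47 TPM (0.026). *H2-Q6* was at 2.66 and 1.85 TPM (0.36), and *H2-Q2* at 1.75 and 1.13 TPM (0.37). The counting interval of each of these 5 genes held 0. *H2-Q6* and *H2-Q2* were past a fold of 1.4 when 0.1 TPM replaced 1 as the added constant, where 3.01% of all genes tested were past the fold, and in the mean signal table, where 3.26% were. In that table *H2-Q6* rested on 4.14 estimated reads in KO and 0 in WT (interval from -0.17 with no upper bound), and *H2-Q2* on 22 and 19.

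The reads of these copies cannot be fully told apart. In GENCODE transcripts of the same assembly, 17.2% of the 100-base windows of *H2-Q7*, the length of a read, were also found in another gene, as were 15.3% of those of *H2-Q5*, 12.4% of those of *H2-Q1* and 10.2% of those of *H2-Q6*, against 0% for *H2-K1* and 4.09% for *H2-D1*. *H2-Q7* shared most with *H2-Q6*, and *H2-Q5* with *H2-Q7*. *H2-Q8*, *H2-Q9*, *H2-T9* and *H2-L* had no gene of that name there and were not analysed in this way. Windows shared with these genes could not be counted. The shares given here, also those of *H2-D1* and *H2-K1*, can therefore be too low. Estimated reads were whole numbers, within 0.02, in both libraries for 3 of 18 class I genes (*H2-Q2*, *H2-M3* and *H2-T24*), against 4 of 5 class II genes and 59.7% of the genes tested that are in the mean signal table. Reads shared between genes by the counting give values that are not whole, so the single values of the other 15 class I genes are uncertain. *H2-K1* was among those 15 although none of its windows was shared in that search.

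Summed over copies, *H2-Q6* to *H2-Q9* reached 52.52 TPM in KO and 44.89 in WT, a log2 ratio of 0.23 (interval 0.12 to 0.39). *H2-Q7* with *H2-Q9* alone summed to 44.81 and 36.72 TPM (log2 ratio 0.29, interval 0.16 to 0.44), and *H2-Q6* with *H2-Q8* to 7.71 and 8.17 TPM (-0.084, interval -0.48 to 0.33). The first of these sums is mostly *H2-Q7* and *H2-Q9* and does not hold *H2-Q5*, which shared windows with *H2-Q7* and was lower in KO. The sum of all 9 Q region genes, which *H2-Q10* dominates, was 1715.84 TPM in KO and 1786.79 in WT (log2 ratio -0.058, interval -0.063 to -0.021).

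Among the T region genes, *H2-T23*, which encodes Qa-1, the ligand of the CD94/NKG2A receptor, was at 192.74 TPM in KO and 191.69 in WT (change 0.0078). *H2-T9* was at 49.39 and 43.59 TPM, a change of 0.18 (interval 0.086 to 0.33), and *H2-T22*, whose product is bound by a subset of γδ T cells, at 16.68 and 18.30 TPM (-0.13, interval -0.34 to 0.043). *H2-T24* was at 3.67 and 3.08 TPM (0.19) and *H2-T10* at 1.83 and 1.51 TPM (0.17). *H2-T9*, *H2-T10* and *H2-T22* are close copies, and their sum was 67.9 TPM in KO and 63.4 in WT (log2 ratio 0.099, interval 0.013 to 0.21). *H2-M3*, which presents N-formylated bacterial peptides, was at 2.26 and 2.12 TPM (0.063), and *H2-K2* at 4.94 and 5.91 TPM (-0.22). The intervals of *H2-T24*, *H2-T10*, *H2-M3* and *H2-K2* held 0. *H2-T10* and *H2-K2* are annotated as transcribed pseudogenes.

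The class I genes together summed to 3237.97 TPM in KO and 3232.96 in WT, a ratio of 1.002. In the mean signal table, to which the interval belongs, the log2 ratio of the sums was 0.023 (interval 0.0080 to 0.038). *H2-Q10* made up 49.3% of that sum in KO and 51.8% in WT, *H2-K1* 27.2% and 25.7%, and *H2-D1* 11.3% and 10.8%. Without *H2-Q10* the sum was 1640.73 TPM in KO and 1558.87 in WT, a ratio of 1.05. *H2-K1*, *H2-D1* and *H2-L* summed to a ratio of 1.06. The class I sums thus held a lower *H2-Q10* and higher classical genes. The median change of the 18 measured class I genes was 0.068, with 12 of 18 higher in KO, and 45.8% of all genes tested were higher in KO.

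**Figure D3:**
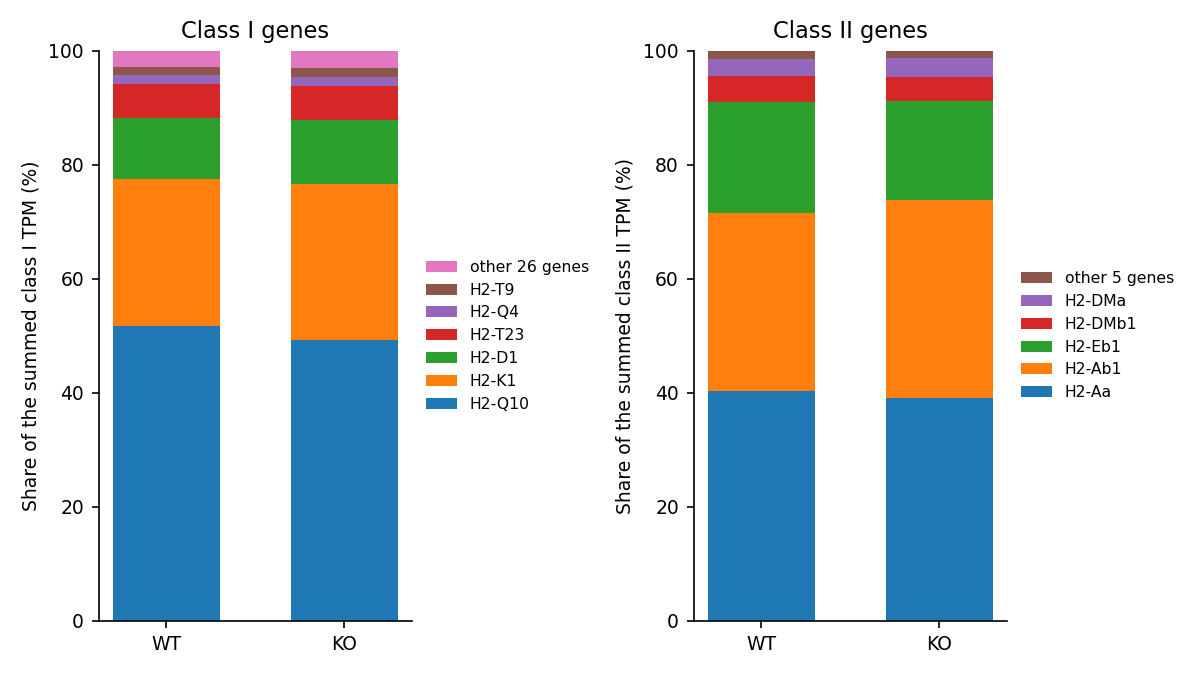
Share of each gene in the summed TPM of the 32 class I genes (left) and the 10 class II genes (right), in percent, in the WT and KO libraries. *H2-Q10* takes 51.8% of class I in WT and 49.3% in KO, and *H2-Ab1* 31.2% of class II in WT and 34.8% in KO.

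Among the genes that serve class I, *B2m*, the light chain of every class I molecule (chr2:122147687-122153082), was the most abundant member, at 2236.76 TPM in KO and 2207.04 in WT (change 0.019, interval 0.018 to 0.069). The summed class I genes, annotated pseudogenes included, stood at 1.45 times *B2m* in KO and 1.46 times in WT. *Tapbp*, which encodes tapasin, was at 48.64 and 48.22 TPM (0.012). *Tap1* and *Tap2* encode the subunits of the TAP transporter and lie near each other between the class II genes. *Tap1* was at 10.26 TPM in KO and 9.92 in WT (0.044, interval -0.13 to 0.25), and *Tap2* at 10.95 and 12.75 TPM (-0.20, interval -0.40 to -0.014). The ratio of *Tap2* to *Tap1* was 1.07 in KO and 1.29 in WT. *Nlrc5*, the transactivator of class I genes, was at 5.84 and 6.18 TPM (-0.070). Of the 5 class I cofactors, only the intervals of *B2m* and *Tap2* left out 0, in opposite directions. The interval of *B2m* belongs to a log2 ratio of mean signal of 0.043 and left out 0 only narrowly.

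The window before *B2m* (GRCm38.p6, chr2:122147437-122147686, plus strand) is shown because it holds matches to both motifs, in capitals, the response element first and GATTGG nearer the start site.
B2m: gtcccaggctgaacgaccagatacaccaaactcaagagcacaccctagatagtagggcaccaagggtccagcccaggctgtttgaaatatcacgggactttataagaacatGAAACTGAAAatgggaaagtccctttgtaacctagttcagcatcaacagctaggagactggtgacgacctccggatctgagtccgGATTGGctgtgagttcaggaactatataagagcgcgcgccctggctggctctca

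Class I exceeded class II 41.3 times in KO and 42.0 times in WT by summed TPM. The class II sum was 78.38 TPM in KO and 76.99 in WT, a log2 ratio of 0.026 (interval -0.081 to 0.14). *H2-Aa*, the α chain of I-A, was at 30.57 TPM in KO and 30.96 in WT (change -0.018). *H2-Ab1*, its β chain, was at 27.27 and 24.05 TPM, a change of 0.17 (interval 0.0018 to 0.40). *H2-Eb1*, the β chain of I-E, was at 13.58 and 14.99 TPM (-0.13, interval -0.35 to 0.092). The ratio of *H2-Ab1* to *H2-Aa* was 0.892 in KO and 0.777 in WT, although the interval of *H2-Ab1* left out 0 only narrowly and overlapped that of *H2-Aa* (-0.19 to 0.19). *H2-Aa*, *H2-Ab1* and *H2-Eb1* together gave 71.42 and 70 TPM (log2 ratio 0.029, interval -0.083 to 0.15). *H2-DMa* and *H2-DMb1*, whose products load peptides onto class II, were at 2.57 and 2.39 TPM (0.075) and at 3.37 and 3.52 TPM (-0.049).

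*Cd74*, the invariant chain that escorts class II through the cell, was at 67.80 TPM in KO and 68.85 in WT (-0.022, interval -0.12 to 0.12). *Ciita*, the transactivator of class II genes, was under the minimum at 0.75 and 0.57 TPM, on 51 estimated reads in each library. The median change of the 5 measured class II genes was -0.018, with 2 higher and 3 lower in KO. *H2-Ke6* was at 75.78 and 75.73 TPM (0.00094) and *H2-Ke2* at 56.26 and 55.10 TPM (0.030), so the genes with an H2- symbol and no role in presentation were close to equal.

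**Figure D4:**
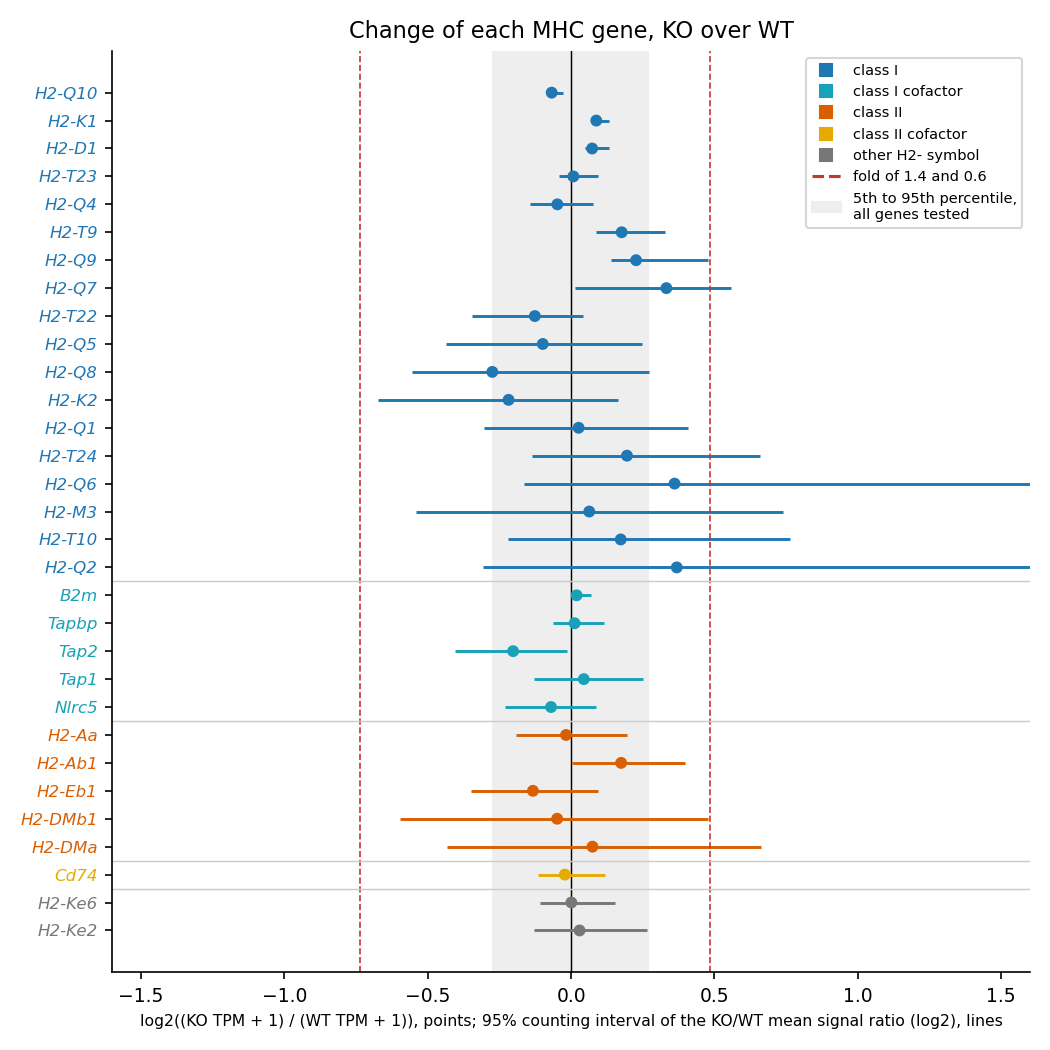
Change of each of the 31 MHC genes, log2((KO TPM + 1)/(WT TPM + 1)) (points), with the 95% counting interval of the log2 ratio of mean signal (lines); the grey band is the 5th to 95th percentile of all genes tested and the dashed lines are folds of 1.4 and 0.6. Points lie from -0.27 (*H2-Q8*) to 0.37 (*H2-Q2*), and the lines of *H2-Q6*, which has no upper bound, and *H2-Q2* run past the right edge.

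The other 20 members had a mean under 1 TPM. For 11 of them, 9 M region genes with *H2-T3* and the pseudogene *H2-Ea-ps*, the mean signal table held no row, and their TPM lay between 0.03 and 0.12. All 11 were listed higher in KO, with a median TPM ratio of 1.33 (range 1.25 to 1.5). Of the 6543 genes in the TPM table without a row in the other, 91.3% were higher in KO, with a median ratio of 1.30, and the WT library held 1.35 times the reads of the KO library. Such posterior mean values are above 0 without any read, so these ratios were not read as expression. C57BL/6 mice are known to make no I-E α chain, and *H2-Ea-ps* was at 0.12 TPM in KO and 0.09 in WT.

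The remaining 9 members were *Ciita*, *H2-L*, *H2-Bl*, *H2-M2*, *H2-M5*, *H2-DMb2*, *H2-Oa*, *H2-Ob* and *H2-Eb2*. *H2-L*, a classical gene that the haplotype of C57BL/6 is known to lack, had 0 estimated reads in KO and 12.1 in WT. On the log2 scale its interval lay below -1.04, and its TPM was 0.36 in KO and 0.95 in WT. The WT estimate is not a whole number, so those reads may be shared with another copy and were not read as expression of *H2-L*. *H2-D1*, a close copy, was higher in KO. *H2-Bl*, annotated as a transcribed pseudogene, had 8 and 3 estimated reads (interval of the log2 ratio -0.21 to 4.4) and 0.64 and 0.22 TPM. *H2-Oa*, which moderates the work of H2-DM, had 0 and 4 reads, and *H2-M2* and *H2-M5* each had 2 and 0. *H2-Eb2* had 2 reads in KO and 1 in WT, *H2-DMb2* 3.06 and 2.20, and *H2-Ob* 9 and 16. For *H2-Oa*, *H2-M2* and *H2-M5* the library at 0 allows up to 3 reads, so no difference was detectable at this depth.

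The genes that make, trim and load peptides were described from lists of the pathway. Of the 5 genes of the immunoproteasome and its PA28 activator, none was past the fold, and their changes ran from -0.11 (*Psme2*, 82.76 TPM in KO and 89.44 in WT) to 0.11 (*Psmb10*, 26.20 and 24.20 TPM), with a median of 0.016. For the 5 genes of peptide loading and trimming the median was -0.063, from -0.13 for the chaperone *Canx* (207.14 and 226.79 TPM) to 0.015 for the peptidase *Erap1* (51.82 and 51.28 TPM). Of the 5 class II processing genes, 4 were higher in KO, with a median of 0.048. They ran from *Ctsl* (426.37 and 427.47 TPM, change -0.0037) to the asparaginyl endopeptidase *Lgmn*, which was at 53.13 TPM in KO and 43.96 in WT (0.27, interval 0.18 to 0.40).

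Class I-like genes outside the H2- symbols gave a median of -0.059 over 5 measured genes. *Mr1*, which presents vitamin B metabolites, was at 3.04 TPM in KO and 3.65 in WT (-0.20, interval -0.64 to 0.11). *Cd1d1*, which presents lipids to natural killer T cells, was at 164.24 and 144.81 TPM (0.18, interval 0.13 to 0.26). None of the 5 was past the fold.

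The factors that drive MHC genes were also within the fold. Of the 7 RFX, NF-Y and CREB genes, 3 were higher in KO, with a median of -0.046, from *Rfxap* (5.52 TPM in KO and 6.81 in WT, -0.26) to *Rfx5* (4.04 and 3.25 TPM, 0.25, interval 0.058 to 0.59). Of 7 genes from the interferon γ receptor to IRF1 that were measured, the median was -0.051, and the highest was *Ifngr2* (17.29 and 14.57 TPM, 0.23). Of 10 measured genes induced by interferon γ, 9 were lower in KO and none was past the fold, with a median of -0.12. Over all genes tested, 45.8% were higher in KO. The lowest of the 10 was the chemokine *Cxcl9*, at 3.71 and 5.29 TPM (-0.42, interval -0.81 to -0.21), and the highest the GTPase *Irgm2*, at 18.15 and 16.94 TPM (0.094). Only the interval of *Cxcl9* left out 0. *Cd274*, of the same list but under the minimum, was at 1.07 TPM in KO and 0.74 in WT (0.25, interval -0.049 to 1.15).

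**Figure D5:**
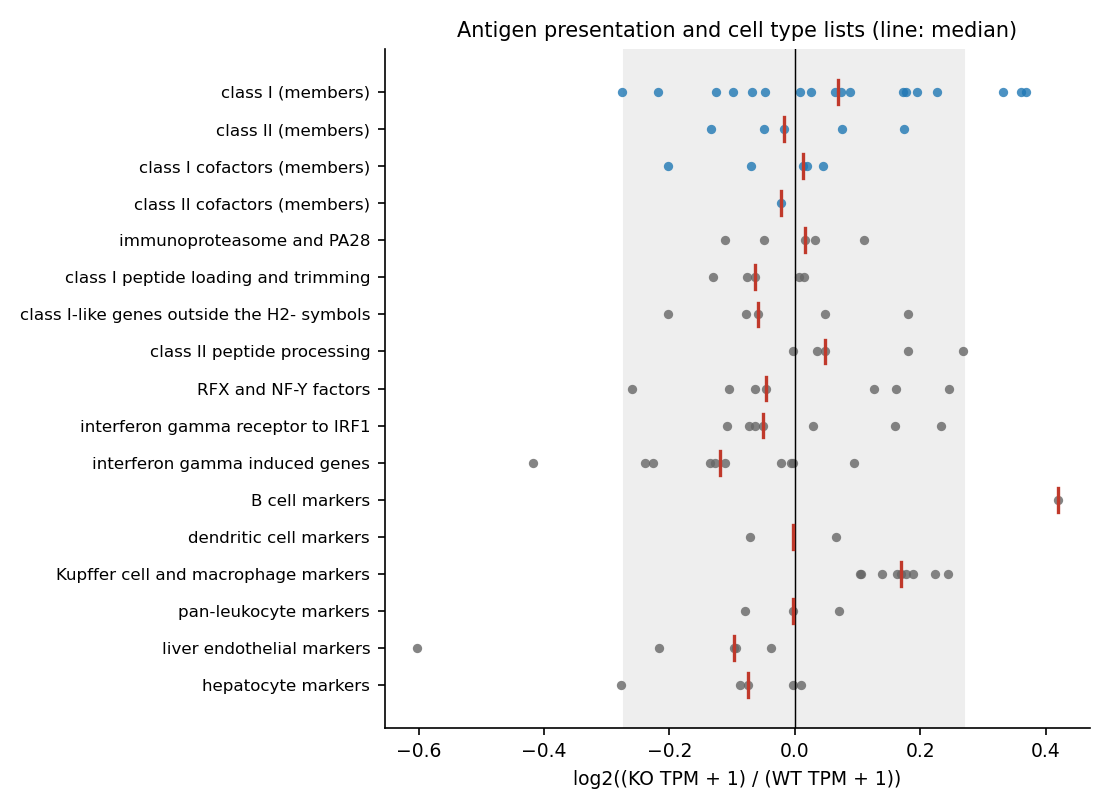
Change of each measured gene, log2((KO TPM + 1)/(WT TPM + 1)), by list (blue, MHC members; grey, other lists; red line, median; grey band, 5th to 95th percentile of all genes tested). The class I genes spread from -0.27 to 0.37 around a median of 0.068, and all 9 Kupffer cell and macrophage markers lie above 0.

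Markers of the cells that carry MHC molecules were read beside the members. In whole liver, fewer cells of a type and less RNA per cell cannot be told apart. All 9 Kupffer cell and macrophage markers in the table were higher in KO, from 0.10 (*Vsig4*) to 0.24 (*C1qa*), and summed to 386 TPM in KO and 340 in WT. Of 7 dendritic cell markers, 2 averaged at least 1 TPM, *Clec9a* (2.31 and 2.48 TPM, -0.072) and *Zbtb46* (4.69 and 4.44 TPM, 0.065), and the 7 summed to 8.42 and 8.68 TPM. Of 4 B cell markers only *Cd79b* reached that mean, at 1.38 and 0.78 TPM (0.42, interval -0.20 to 1.98), and the 4 summed to 2.40 and 1.83 TPM. None of the 7 T and NK cell markers did, and they summed to 2.87 TPM in KO and 2.40 in WT. The most estimated reads of any of these B, T and NK cell markers were 33 in KO and 40 in WT (*Cd4*). Apart from *Cd79b* their sums hold posterior means under 1 TPM, so the sums were not read as a difference. No marker of these 4 lists was listed at 0 in either library. Posterior mean values are above 0 without any read, so this does not show that a marker was detected. *Cd3d*, for example, rested on 1 estimated read in each library.

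The 3 pan-leukocyte markers had a median of -0.0024, from *Coro1a* (-0.080) to *Laptm5* (0.071). The 5 liver endothelial markers were all lower in KO, from -0.60 for *Lyve1* (11.47 TPM in KO and 17.94 in WT) to -0.038 for *Stab2* (25.41 and 26.11 TPM), and summed to 120.62 and 135 TPM. The 5 hepatocyte markers ran from -0.28 for *Tat* (1434.74 and 1738.63 TPM) to 0.010 for *Asgr1* (408.64 and 405.71 TPM), with a median of -0.074. Beside the Kupffer cell and macrophage median of 0.17, the class II sum stood at 0.026 and *Cd74* at -0.022. Beside the hepatocyte median *H2-Q10* stood at -0.068, whereas *H2-K1* stood at 0.088, *H2-D1* at 0.073 and *H2-T23* at 0.0078. The part of cell composition in the MHC values was not tested.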

How the data were processed

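Liver RNA was sequenced as paired 100-base reads from 1 pooled stranded total RNA library per genotype. The authors used CASAVA 1.8.2, then RSEM 1.2.09 with Bowtie against mm10, and deposited a posterior mean in TPM for each gene. A second deposited table, made with EBSeq, holds a mean signal for each library, the estimated reads over a size factor, of 16318 genes. Its columns C1Mean and C2Mean were taken as KO and WT. Its other columns, the authors' comparisons, hold fold changes and the probabilities of equal and of differential expression, and were not used. The most frequent step of the mean signal, 1.16 in KO and 0.860 in WT, was taken as the value of 1 read. At a tolerance of 0.02, 78.4% and 75.0% of values were whole. No test was run on 1 library per genotype, and the intervals use estimated reads rounded to whole numbers, also where reads were shared between genes.

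Members and lists were chosen with earlier results of these data known. Each member that averaged at least 1 TPM was named. From the other lists the highest and lowest gene and any past the fold were named, except that the lowest gene of 1 list is not reported here. The stretch common to 4 promoters was also sought after the data were seen. Interval and calls were tested on data simulated with the error of counting alone. That simulation held no reads shared between copies and no spread between mice, so it does not check the intervals for either. Promoters are from RefSeq (GRCm38.p6), where 24 class I, 9 class II and 3 class I cofactor windows matched, and transcripts from GENCODE on GRCm38. Identity was counted after alignment with free end gaps. Protein sequences were not analysed here. Alternatives were a pseudocount of 0.1 TPM, the mean signal table, subtraction of the median change, TPM rescaled after leaving out the top 50 genes, other minimums and other folds. Scipy 1.17.1 gave the intervals and matplotlib 3.10.9 the plots, under Python 3.11.15 with pandas 2.3.3 and numpy 2.4.6.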

Additional observations from a re-analysis of the deposited data

How the results depend on the processing

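No paired analysis was possible because a single pooled library stood for each genotype, which also left no replicate to leave out. The count of members past the fold was 0 in the TPM table and 2 (*H2-Q2* and *H2-Q6*, both higher in KO) with a pseudocount of 0.1 TPM, where 3.01% of all genes were past the fold, and in the mean signal table, where 3.26% were. It stayed at 0 with no minimum and with falls called at the mirror of the rise. It also stayed at 0 when the median change of -0.013 was subtracted and when TPM were rescaled with the top 50 genes left out. With no minimum the count could hardly rise, since the added 1 shrinks changes under 1 TPM. *H2-M5*, at a TPM ratio of 4.2, reached a fold of 1.15 on that scale. A 10 TPM minimum and folds of 2 and 0.5 are stricter than the main setting, so there a count of 0 could not change. The log2 ratio of the class I sums was 0.0022. It became 0.023 in the mean signal table, 0.074 without *H2-Q10* and 0.083 for *H2-K1*, *H2-D1* and *H2-L* alone, and -0.046 for the Q, T and M region genes alone. The class II sum moved by less than its counting interval under each alternative run. The class II median of -0.018 turned to 0.00096 in the mean signal table and to 0.011 with no minimum, and the class I median of 0.068 became 0.027 with no minimum. The medians with no minimum take in members without a row in the mean signal table, whose TPM ratios were not read as expression. The class I value of 0.027 is that of *H2-M10.1*, at 0.06 TPM in KO and 0.04 in WT. These 2 medians therefore say little about expressed genes. Of the 31 single changes, 29 kept their sign over the 5 settings, and *H2-Aa* and *Cd74* turned to 0.00096 and 0.0012 in the mean signal table. Another pseudocount cannot change a sign, and subtracting the median or rescaling moved the ratio of the libraries little. The mean signal table was thus the main check of sign. The depth leaves genes under 1 TPM without a detectable difference, apart from *H2-L*, and the spread between mice is unknown.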
